A study of Mus musculus with 16 samples.

Results

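The core autophagy genes described here are 10 genes chosen by name, Ulk1, Becn1, Atg5, Atg7, Atg12, Atg16l1, Map1lc3a, Map1lc3b, Gabarapl1 and Sqstm1. They are 10 of the 52525 genes that 3 tables of RNA-seq counts from mouse small intestine have in common, and all 10 passed the filter on low counts in every experiment. The study asked what the ubiquitin ligase scaffold CUL4B does in the intestinal epithelium, with attention to IRGM1, a GTPase that is linked to autophagy. The 3 experiments compared 4 KO with 4 WT crypt libraries, 2 KO with 2 WT organoid libraries of the same mouse model, and 2 KO with 2 WT organoid libraries of an inducible model. Crypts, the pits of the intestinal lining, house its stem cells, and organoids are cultures grown from crypts in Matrigel.

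All groups were on a C57BL/6 background. In the first model Cul4b was deleted by a Cre recombinase under the Villin promoter, which is active throughout the intestinal epithelium (pVillin-Cre; Cul4b fn/Y, called KOIEC), and the WT controls carried the fn allele without Cre. In the second model the ubiquitous CAG promoter drives a Cre that 4-OHT, the active form of tamoxifen, switches on (CAG-CreERT2; Cul4b fn/Y, called KOCAG). The labels give neither the Cre nor the 4-OHT status of the WT organoids of that model, nor the age of the mice of any group. The labels do not tie libraries to single mice or cultures, so the p-values measure the spread between these libraries, which may be partly technical. Organoid libraries are called cultures below, although whether each came from its own culture is not known.

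Autophagy encloses cytoplasm and damaged organelles in a double membrane, the autophagosome, and delivers them to the lysosome for digestion. A kinase complex starts the membrane, a lipid kinase complex marks it, and a pair of ubiquitin-like conjugation systems attach proteins of the ATG8 family to it, which hold cargo through receptors. In the intestine the pathway is best known from Paneth cells, whose granule secretion depends on it, and a variant of ATG16L1 is a known risk factor for Crohn's disease. Much of its control acts on proteins, so transcript levels alone do not measure its activity.

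Total counts per library ranged from 7348191 to 16881395, and the lowest count of any of the 10 genes was 47. Levels are given as CPM, in which each count is divided by its library's total over the tested genes and scaled by edgeR's TMM factors. Cul4b itself was lower in the KO libraries of every experiment, with log2 fold changes of -4.56 in crypts, -5.50 in KOIEC organoids and -4.02 in KOCAG organoids. Irgm1 mRNA was called in none of them, with log2 fold changes of 0.20, -0.34 and 0.15. Mitochondrial ribosomal RNA divided the crypt libraries. It took 2840 and 2873 CPM of all counts in WT replicates 2 and 3, 834 in WT replicate 4, 1078 in KO replicate 4, and 18.9 to 25.2 in the other 4 libraries, 3 of them KO. The KO replicates of the KOIEC organoids had a chi-square per degree of freedom of 109, against 4.03 to 69.1 in the other replicate pairs. This statistic grows with depth, and those 2 libraries held 15896187 and 16055444 counts, more than any crypt or KOCAG library. It therefore does not rank pairs of unlike depth by their difference. The WT pair of the KOIEC organoids, at a like depth of 16881395 and 15006730 counts, stood at 25.6. At that depth the KO replicates differed more than the WT replicates. The samples are bulk RNA, so fewer cells of a type and less RNA per cell cannot be told apart. Epithelial markers summed to between 6657 and 11826 CPM across the libraries. Immune markers summed to 0.389 to 6.24 CPM in the organoids and to 202 to 935 CPM in the crypts.

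Levels of different genes were compared as TPM, which corrects for gene length. Sqstm1, which encodes the cargo receptor p62, stood highest in the WT libraries of every experiment, at 67.9 ± 3.10 TPM in crypts (SD, n = 4), 140.7 ± 22.3 in the WT organoids of the KOIEC experiment and 119 ± 2.22 in those of the KOCAG experiment (both n = 2). The second gene of each order was lower by factors of 1.75, 2.40 and 2.36. Atg12, Atg5 and Becn1 followed in crypts at 38.7 ± 2.95, 37.8 ± 3.25 and 36.8 ± 1.33 TPM, which lie within the spread of one another. Map1lc3b (22.2 ± 1.87) came next. Gabarapl1 (14.7 ± 2.88), Map1lc3a (12.3 ± 1.16), Atg7 (12.2 ± 1.56), Ulk1 (10.2 ± 1.01) and Atg16l1 (9.85 ± 1.17) closed the order, and no neighbouring pair of these 5 differed by more than the sum of its SDs. All of the 10 but Atg7 read higher in the WT organoids of both experiments than in WT crypts, with Gabarapl1 at 30.1 and 39.4 TPM, Map1lc3a at 21.9 and 26.6, and Ulk1 at 20.3 and 30.5. The experiments were prepared separately, so these levels are set side by side without a test.

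**Figure D1:**
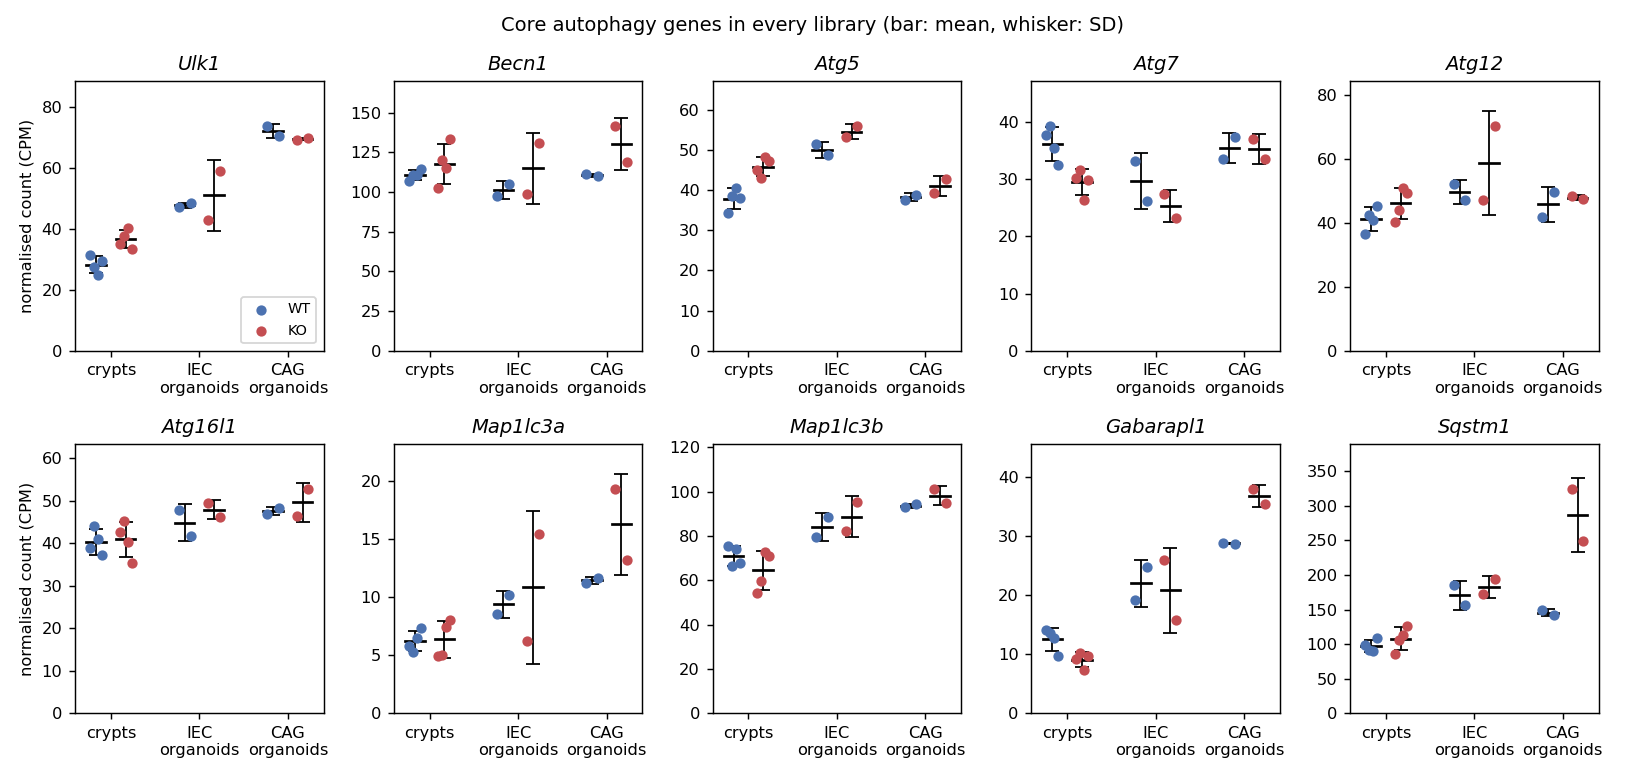
Normalised counts (CPM, linear axes from 0) of the 10 core autophagy genes in each of the 16 libraries, grouped by experiment and genotype (blue WT, red KO), with the group mean as a bar and the SD as a whisker. Both KOCAG organoid libraries sit above both WT libraries for Sqstm1, Gabarapl1, Becn1, Atg5, Map1lc3a and Map1lc3b and below them for Ulk1. Such groups do not overlap for 69.7% of all genes there. In crypts all 4 KO libraries sit above all 4 WT libraries for Ulk1 and Atg5 and below them for Atg7, against 17.5% of all genes without overlap.

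In the crypts none of the 10 genes passed the adjusted threshold of edgeR's quasi-likelihood test (Benjamini-Hochberg over 13427 genes), against 6.96% of all genes tested. At an unadjusted p under 0.05 there were 4, Ulk1, Atg5, Atg7 and Gabarapl1, against 31.9% of all genes. KO and WT libraries did not overlap for 3 of the 10, against 17.5% of all genes. DESeq2, another test for counts, called 2 of the 10, Ulk1 and Atg5, both higher, against 18.7% of all genes in either direction and 11.6% higher. A share of 2 in 10 is near that of all genes. The median log2 fold change of the 10 was 0.06, and that of all genes tested was -0.01.

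Ulk1 encodes the kinase that starts autophagosome formation (chr5:110784488-110810097, minus strand). Its WT crypt libraries held 31.3, 27.3, 24.7 and 29.4 CPM, and its KOIEC libraries held 35.1, 37.5, 40.3 and 33.5. Every KO library was above every WT library. The log2 fold change was 0.38 (SE 0.11, 95% confidence interval 0.14 to 0.62), with an adjusted p of 0.0586 by edgeR and of 0.0245 by DESeq2. Leaving out single libraries gave adjusted p-values of 0.0473 to 0.159 by edgeR, under the threshold only without KO replicate 1. When mitochondrial rRNA, as a high, middle or low class of each library, entered the fit, the log2 fold change was 0.23, with an adjusted p of 0.329 by edgeR. That fit called only 2 of the 13427 genes tested, so its adjusted p does not set Ulk1 apart. In the same fit Atg5 was 0.37 and Atg7 -0.27, with adjusted p-values of 0.211 and 0.312 by edgeR. For Ulk1 the exact two-sided permutation p was 0.0286, the smallest that 4 against 4 libraries allow.

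Becn1 (chr11:101285952-101302286, minus strand) encodes Beclin 1, a subunit of the lipid kinase complex that nucleates the membrane. It ranged from 107 to 115 CPM in WT and from 103 to 133 CPM in KOIEC crypts, and the groups overlapped (log2 fold change 0.09, SE 0.10, adjusted p 0.545 by edgeR). Its exons share 3104 bases with those of Cntd1 on the opposite strand. The strand setting of the counting is not given, so reads from the pair may not be separated. Cntd1 itself held 4 to 26 counts per library. How reads in the shared bases were assigned is not known, so this low count does not show that Becn1 kept them.

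None of the conjugation genes passed edgeR's test, and the estimates of Atg5 and Atg7 had opposite signs. Atg5 (chr10:44268358-44364291, plus strand) encodes the protein to which ATG12 is joined. It stood at 34.2, 38.5, 40.6 and 38.1 CPM in WT crypts and at 44.9, 43.0, 48.3 and 47.2 CPM in KOIEC crypts. The groups did not overlap, and the log2 fold change was 0.28 (SE 0.09, interval 0.08 to 0.47), with an adjusted p of 0.0730 by edgeR and 0.0458 by DESeq2. Atg7 (chr6:114643097-114860614, plus strand), the activating enzyme of both conjugation systems, lay the other way. Its values were 37.7, 39.3, 35.4 and 32.5 CPM in WT and 30.2, 31.6, 26.3 and 29.8 CPM in KOIEC crypts. Each KO library was below each WT library, with a log2 fold change of -0.30 (SE 0.10, interval -0.52 to -0.07, adjusted p 0.0842 by edgeR). Atg12, the ubiquitin-like protein, and Atg16l1 (chr1:87755870-87792428, plus strand), which brings the conjugate to the membrane, overlapped between genotypes, with log2 fold changes of 0.16 (SE 0.11) and 0.02 (SE 0.10).

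Among the ATG8 genes, Gabarapl1 (chr6:129533160-129542346, plus strand) held 14.1, 13.7, 12.7 and 9.73 CPM in WT crypts. The KOIEC crypts held 9.30, 10.2, 7.32 and 9.65 CPM. All of these but that of replicate 2 were below all WT values, and WT replicate 4 lay among the KO libraries. The log2 fold change was -0.46 (SE 0.17, interval -0.83 to -0.08), with an adjusted p of 0.103 by edgeR and an exact permutation p of 0.0571. The LC3 genes Map1lc3a (chr2:155276297-155278073, plus strand) and Map1lc3b (chr8:121590361-121598760, plus strand) overlapped between genotypes. Their log2 fold changes were 0.03 (SE 0.21) and -0.14 (SE 0.11). Exons of Map1lc3b share 58 bases with Zcchc14 on the opposite strand, which held 605 to 1501 counts per library. Those of Gabarapl1 share 570 bases with 1700101I11Rik, also on the opposite strand, which held 0 to 5 counts.

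Sqstm1 (chr11:50199366-50210827, minus strand) links ubiquitinated cargo to ATG8 proteins and is itself digested with the cargo. WT crypts held 99.3, 91.6, 90.5 and 108 CPM, and KOIEC crypts held 86.0, 106, 113 and 127 CPM. The lowest and the 2 highest libraries were all KO, so the groups overlapped. The log2 fold change was 0.15 (SE 0.13, interval -0.13 to 0.43, adjusted p 0.437 by edgeR).

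Mitochondrial ribosomal RNA moved with genotype in the crypts, with 2 WT libraries in the high class, over 2000 CPM, and 3 KO libraries beside 1 WT library in the low class, under 100 CPM. Within the low class the KO minus WT difference in log2 CPM was 0.26 for Ulk1, 0.40 for Atg5, -0.36 for Atg7 and -0.65 for Gabarapl1. Within the middle class, 1 KO and 1 WT library, it was 0.18, 0.31, -0.12 and -0.01. Each of the 4 genes had the same sign in both classes as over all libraries, and Gabarapl1 was near 0 in the middle class. Enterocyte markers also moved with genotype, with 12 of 12 positive and 2 of them called, and summed levels of 3977 to 14711 CPM in WT and 13648 to 28612 CPM in KOIEC crypts. Stem cell markers summed to 2093 to 3124 CPM in WT and 1393 to 2175 CPM in KOIEC crypts, with 2 of 8 lower by the test. Enteroendocrine markers were positive in 0 of 6, with 1 lower by the test, and epithelial markers in 3 of 8, with 1 higher. Over all genes 4.30% were higher and 2.66% lower. Of the lists with none called, Paneth cell markers were positive in 2 of 8 (median -0.61, sums of 10494 to 18924 CPM in WT and 2061 to 18583 in KOIEC crypts), tuft cell markers in 5 of 5 (median 1.12) and immune markers in 7 of 8 (median 1.30). Goblet cell markers were positive in 5 of 8 (median 0.01, sums of 5460 to 8322 CPM in WT and 7646 to 12458 in KOIEC crypts) and stromal markers in 0 of the 4 tested. The part of the cell types in the values of the 10 genes was not tested.

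**Figure D2:**
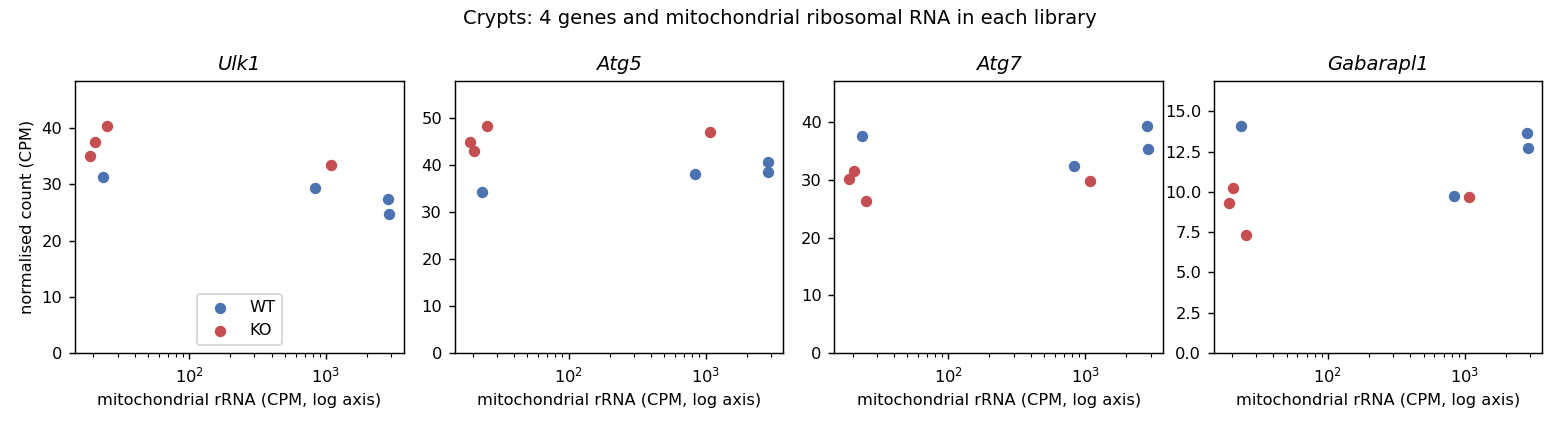
Normalised counts (CPM, linear axes from 0) of Ulk1, Atg5, Atg7 and Gabarapl1 in the 8 crypt libraries (blue WT, red KO) against mitochondrial ribosomal RNA in the same library (CPM of all counts, log axis). The KO libraries lie at 18.9 to 25.2 CPM of mitochondrial ribosomal RNA apart from 1 at 1078, and the 2 WT libraries over 2000 CPM have the lowest Ulk1 values, 27.3 and 24.7 CPM.

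In the organoids of the same KOIEC model none of the 10 genes passed, and none had an unadjusted p under 0.05. Among all genes tested 0.00717% passed, a single gene, so a low count of calls sets nothing apart here. DESeq2 called none of the 10 either, against 0.187% of all genes. Log2 fold changes ran from -0.23 to 0.24, with SEs of 0.16 to 0.49 and adjusted p-values of 0.858 to 0.966 by edgeR. KO and WT libraries did not overlap for 1 of the 10, Atg5, against 38.9% of all genes tested. It stood at 51.4 and 48.6 CPM in WT and at 53.2 and 56.0 CPM in KO organoids.

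The spread between the KOIEC organoid cultures was wide for several of these genes. Map1lc3a was 6.21 CPM in KO replicate 1 and 15.5 CPM in KO replicate 2, on either side of the WT values of 8.58 and 10.2 CPM. Gabarapl1 was 26.0 and 15.8 CPM in the KO cultures, again around the WT values of 19.2 and 24.9 CPM. Sqstm1 was 186 and 156 CPM in WT and 172 and 194 CPM in KO cultures (log2 fold change 0.10, interval -0.35 to 0.56). The interval of Sqstm1 reaches neither of the 2-fold limits, while that of Map1lc3a (-1.05 to 1.46) spans both. Stem cell markers summed to 3379 to 4769 CPM in WT and 605 to 2228 CPM in KO organoids, with 0 of 8 positive and none called. Of the other lists, also with none called, Paneth cell markers were positive in 0 of 8 (median -0.67). Goblet cell markers were positive in 7 of 8 (median 1.05) and enteroendocrine markers in 6 of 6 (0.49). Enterocyte markers were positive in 9 of 12 (0.26), tuft cell markers in 4 of 5 (0.28) and epithelial markers in 7 of 8 (0.28).

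In the KOCAG organoids 2 of the 10 genes rose and none fell, against 31.5% of all genes tested called in either direction, 18.1% higher and 13.4% lower. The 2 were Sqstm1 and Gabarapl1. A share of 2 in 10 higher is near the share of all genes. At an unadjusted p under 0.05 there were 4, with Becn1 and Map1lc3a, against 43.0% of all genes. KO and WT did not overlap for 7 of the 10, against 69.7% of all genes tested. The median log2 fold change of the 10 was 0.09, and that of all genes was 0.00. The spread that edgeR estimated between replicate libraries, as a coefficient of variation, was 0.08 here, against 0.23 in crypts and 0.28 in KOIEC organoids.

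Sqstm1 showed the largest change of the 10 in any experiment. The WT cultures held 149 and 142 CPM, and the KOCAG cultures held 325 and 249 CPM. Both KO values were above both WT values, although the KO cultures also differed from each other. The log2 fold change was 0.98 (SE 0.12), a 1.97-fold increase (95% confidence interval 1.64 to 2.36), with an adjusted p of 0.000271 by edgeR's test. Without any 1 library the log2 fold change lay between 0.76 and 1.15, the lower value without KO replicate 1, and the call stood each time. Exact permutation of 2 against 2 libraries cannot give less than 0.333. Exons of Sqstm1 share 580 bases with Mrnip on the opposite strand, which held 14 to 50 counts per library, far below the 1095 to 2590 counts of Sqstm1 in these cultures. How reads in these shared bases were assigned is not known either.

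Gabarapl1 stood at 28.9 and 28.8 CPM in WT and at 38.1 and 35.5 CPM in KOCAG cultures, so the groups did not overlap. Its log2 fold change was 0.35 (SE 0.11, interval 0.10 to 0.60), with an adjusted p of 0.0403 by edgeR. The call was lost by DESeq2 (adjusted p 0.204), in the fit of all 16 libraries (0.441), without a low-count filter (0.0560) and with scaling by library size only (0.0576). It was also lost without WT replicate 1 (0.193), WT replicate 2 (0.189) or KO replicate 1 (0.108). Its direction was the same in every one of these fits.

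The other ATG8 genes and Becn1 did not pass. Map1lc3a was 11.2 and 11.7 CPM in WT and 19.3 and 13.2 CPM in KOCAG cultures (log2 fold change 0.49, SE 0.21, adjusted p 0.100 by edgeR). Becn1 was 111 and 110 CPM in WT and 142 and 119 CPM in KOCAG cultures (log2 fold change 0.23, SE 0.10, adjusted p 0.0918 by edgeR). In both genes KO replicate 1 was the higher KO value, and without KO replicate 2 both passed (adjusted p 0.00435 and 0.00133). Ulk1, at 73.7 and 70.4 CPM in WT and 69.2 and 69.8 CPM in KOCAG cultures, had a log2 fold change of -0.05 with an interval of -0.24 to 0.14. Atg5, Atg7, Atg12, Atg16l1 and Map1lc3b lay between -0.01 and 0.11, and the widest of their intervals was -0.27 to 0.25, that of Atg7.

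**Figure D3:**
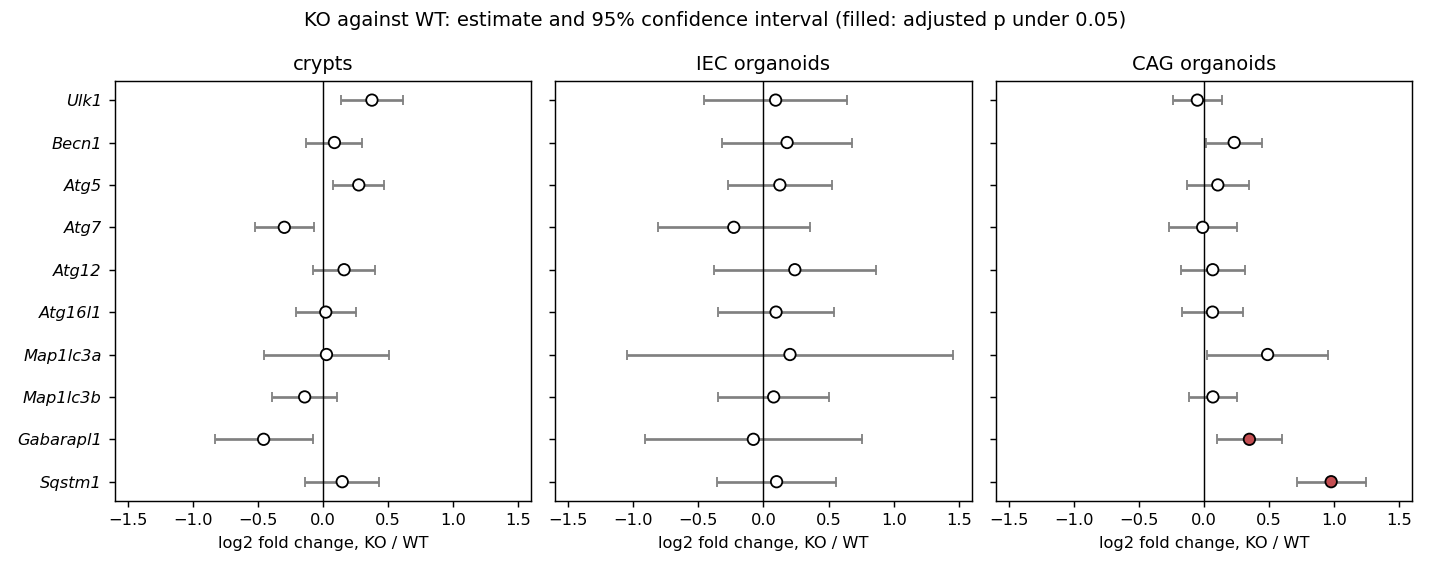
Log2 fold change of KO over WT (horizontal axis) for the 10 core autophagy genes in each experiment, with 95% confidence intervals from edgeR as bars. Filled points passed an adjusted p of 0.05, which only Sqstm1 (0.98) and Gabarapl1 (0.35) in the KOCAG organoids did, and the intervals are widest in the IEC organoids.

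The bases before the start sites of these 2 genes are shown because they are the members that were called. RefSeq promoters of GRCm38.p6 were found for 6 of the 10 genes, and the 250 bases before the annotated start are printed 5′ to 3′ on the gene's own strand, in lower case with any motif match in capitals.
Sqstm1, chr11:50210821-50211070, minus strand: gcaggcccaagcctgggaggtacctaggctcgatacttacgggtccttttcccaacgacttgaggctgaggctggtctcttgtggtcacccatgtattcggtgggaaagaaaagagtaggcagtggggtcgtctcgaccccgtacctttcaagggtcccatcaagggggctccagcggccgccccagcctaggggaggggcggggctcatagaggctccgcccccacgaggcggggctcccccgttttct
Gabarapl1, chr6:129532942-129533191, plus strand: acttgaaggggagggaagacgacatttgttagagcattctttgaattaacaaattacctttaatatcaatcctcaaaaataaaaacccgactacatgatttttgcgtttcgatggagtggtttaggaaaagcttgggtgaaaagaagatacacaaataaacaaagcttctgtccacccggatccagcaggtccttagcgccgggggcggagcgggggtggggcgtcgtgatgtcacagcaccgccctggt
The letters were searched on both strands for CACGTG, the E-box core that TFEB and related factors bind, and for TGACNNNGC, the core of the antioxidant response element. TGATGNAA, a composite site of ATF4 and C/EBP factors, was searched too. Neither stretch held any of them, so no base is in capitals. Among 32851 promoter stretches of this length, 6.02% held CACGTG, 10.2% TGACNNNGC and 3.45% TGATGNAA. Among the other 4 members with a stretch (Ulk1, Atg5, Atg7 and Map1lc3b), Atg5 and Atg7 each held 1 CACGTG. The stretch of Atg7 lies inside the gene, 27999 bases from the start given above, while those of the other 5 genes lie within 77 bases of theirs. A missing match says only that these letters are not in this window.

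Other genes were described from 10 lists of 97 genes in all. These cover the steps from initiation to the lysosome, 18 upstream regulators, and 9 genes of NRF2, an oxidative stress regulator, and its targets. In the KOCAG organoids 38 of the 96 tested genes rose and 7 fell, against 18.1% of all genes higher and 13.4% lower, and the median was 0.19 on the log2 scale. The lysosome and NRF2 lists held 15 and 8 of those that rose. In the fit of all 16 libraries, which shares one estimate of spread, 4 rose and 2 fell, against 3.06% of all genes called. Of the 20 lysosome genes 15 rose and 1 fell, with a median of 0.52. Ctsl and Ctsd, which encode cathepsins, rose by log2 fold changes of 0.96 (SE 0.12, adjusted p 0.000234 by edgeR) and 0.95 (SE 0.10), and Atp6v0d1, a subunit of the proton pump that acidifies the lysosome, rose by 0.75 (SE 0.11). Npc2, a lysosomal cholesterol carrier, fell by 0.44 on the log2 scale.

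Both other ATG8 genes rose in the KOCAG organoids, Gabarap by 0.46 (SE 0.09) and Gabarapl2 by 0.43 (SE 0.10) on the log2 scale. Over all genes 18.1% were higher and 13.4% lower, and the counts that follow are read against these shares. In the list of NRF2, the oxidative stress regulator, and its targets, 8 of 9 rose, led by Slc7a11 (1.59, SE 0.21), a cystine transporter, Hmox1 (1.37, SE 0.36), which degrades haem, and Srxn1 (1.18, SE 0.11), which repairs peroxiredoxins. In the fit of all 16 libraries none of these 9 and 2 of the 20 lysosome genes were called, against 3.06% of all genes. Without WT replicate 1, fewer genes of both lists and of all genes were called than with every library. Sqstm1 is itself known as an NRF2 target and was not counted in that list. Of the 12 cargo receptors 2 were higher, near the share of all genes, and 3 were lower. Bnip3 (-1.89, SE 0.13) and Bnip3l (-0.69, SE 0.08), receptors for mitochondria that respond to hypoxia, fell with Calcoco1 (-0.60, SE 0.11), while Optn (0.51) and Tollip (0.41) rose.

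Counts for the earlier steps and the upstream regulators are read against the same 18.1% of all genes higher and 13.4% lower. Atg9b and Atg9a, which supply membrane, rose by 2.01 (SE 0.12) and 0.42 (SE 0.12) on the log2 scale, as 2 of the 8 genes of their list. Atg101 rose by 0.40, 1 of 4 in the ULK complex. Atg4a, a protease that processes ATG8 proteins, and Atg3, their conjugating enzyme, rose by 0.82 (SE 0.22) and 0.35 (SE 0.10), and none of the 7 genes of the PI3K complex list was called. Of 10 genes for fusion with lysosomes 4 rose, led by Vamp8 (0.53), Epg5 (0.39) and Snap29 (0.38), and the syntaxin gene Stx17 fell by 0.32 on the log2 scale. Of 17 upstream regulators tested 2 rose, Sesn2 (1.88, SE 0.10), a stress-induced inhibitor of mTORC1, and Tfeb (0.57, SE 0.17), the transcription factor of lysosomal genes. The mTOR-binding genes Deptor (-0.87, SE 0.08) and Rictor (-0.43, SE 0.09) fell. Optn, Tollip, Npc2, Stx17 and Rictor were named after their values were seen, since the counts they belong to are small.

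Markers of differentiated cells moved with genotype in the same organoids. Of 12 enterocyte markers 10 rose, and their sum was 9540 to 9931 CPM in WT and 17436 to 21778 CPM in KOCAG cultures. Paneth and goblet cell markers rose in 6 of 8 each and enteroendocrine markers in 6 of 6, while 3 of 8 stem cell markers fell. Over all genes 18.1% were higher and 13.4% lower. The part of these cell types in the autophagy and lysosome values was not tested. Mitochondrial ribosomal RNA stood at 920 and 1025 CPM in the WT and at 1184 and 1305 CPM in the KOCAG libraries.

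**Figure D4:**
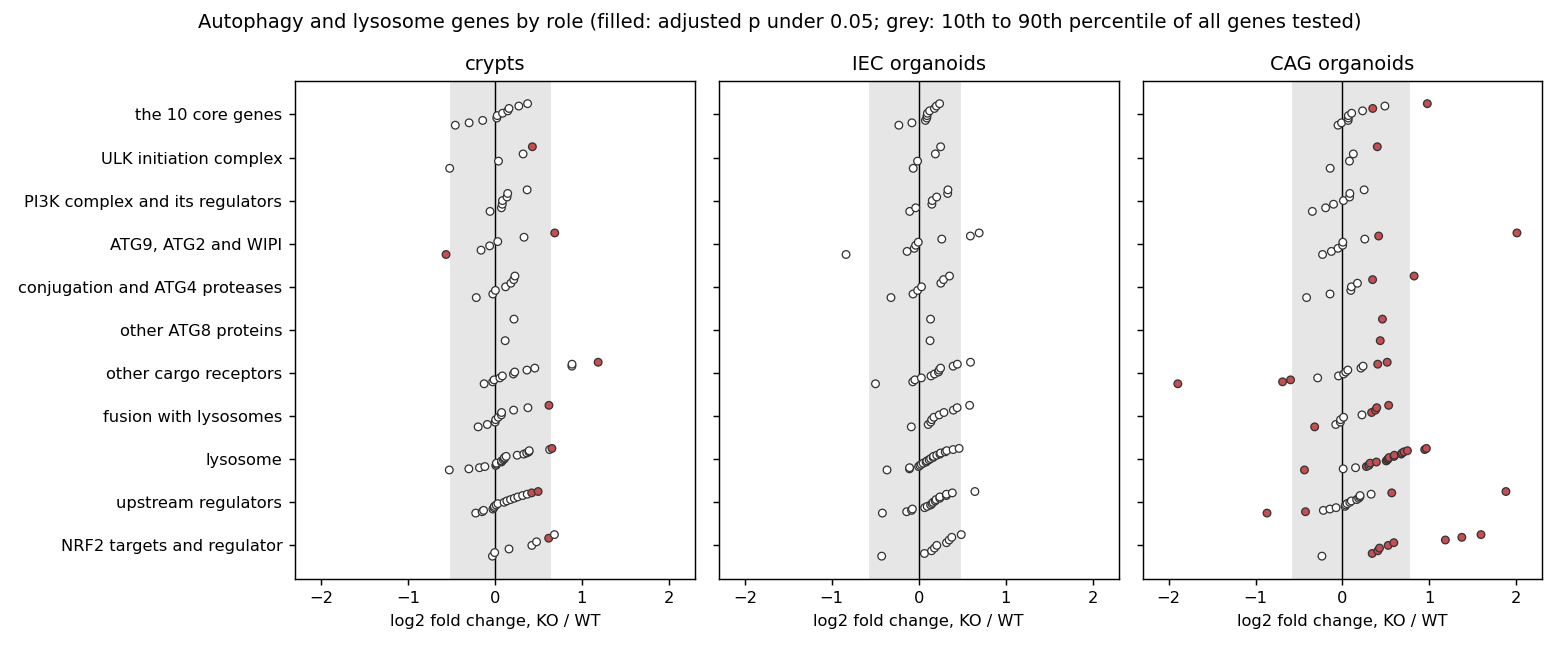
Log2 fold change of KO over WT (horizontal axis) of each tested gene in the 10 pathway lists and of the 10 core genes, 1 panel per experiment, with genes at an adjusted p under 0.05 filled and the 10th to 90th percentile of all tested genes in grey. In the KOCAG organoids 19 of 20 lysosome genes lie above 0 and 15 are filled as higher, while in the KOIEC organoids no gene of any list is filled.

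In the crypts 8 of the 92 pathway genes tested rose and 1 fell, against 4.30% of all genes tested higher and 2.66% lower, and the median log2 fold change was 0.11. Those that rose included Ncoa4 (1.19, SE 0.29), the receptor for ferritin, Atg9a (0.69, SE 0.14), Npc1 (0.66, SE 0.16), a lysosomal cholesterol transporter, and Epg5 (0.62, SE 0.15), a tether for fusion with lysosomes. Gclm (0.62), the AMPK subunit gene Prkaa2 (0.50), the ULK complex scaffold gene Rb1cc1 (0.43) and Foxo3 (0.42) rose as well, and Wipi1, which binds the marked membrane, fell by 0.56 on the log2 scale. Their adjusted p-values lay between 0.0407 and 0.0499 by edgeR, and the count depended on single libraries. It was 0 without WT replicate 1, 2 or 3 or without KO replicate 2 or 3, 15 without KO replicate 1 and 21 without WT replicate 4. Calls over all genes moved the same way, from 934 with all libraries. They were 20, 3, 11, 2 and 2 in the fits that gave 0, 2468 without KO replicate 1 and 1864 without WT replicate 4. The count of pathway genes was also 0 when a library's class of mitochondrial rRNA entered the fit as a covariate and without the 2 WT libraries of the high class. Those fits called 2 and 1 of all genes. The pathway count therefore does not set these genes apart from the rest. In the KOIEC organoids none of 96 tested pathway genes passed in edgeR's test or in DESeq2 (median log2 fold change 0.16). Of all genes 0.00717% and 0.187% passed.

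Whether the KO effect on the 10 genes differed between experiments was tested as an interaction in 1 fit of all 16 libraries over 15585 genes. None of the 10 passed in any of the 3 pairs of experiments, against 0.385% of all genes for KOCAG minus KOIEC organoids, 0.372% for crypts minus KOCAG organoids and 0.00642% for crypts minus KOIEC organoids. At an unadjusted p under 0.05 there were 1, 3 and 0 of the 10. The share of all genes at that unadjusted threshold is not given here, so these counts set nothing apart. For Sqstm1 the log2 fold change in KOCAG minus that in KOIEC organoids was 0.86 (SE 0.26, interval 0.30 to 1.41, adjusted p 0.221 by edgeR). The value in crypts minus that in KOCAG organoids was -0.82 (SE 0.23, interval -1.30 to -0.33, adjusted p 0.127 by edgeR), which DESeq2 called (adjusted p 0.0340), as did edgeR without a low-count filter (adjusted p 0.0292). For Gabarapl1 the value in crypts minus that in KOCAG organoids was -0.79 (interval -1.41 to -0.18, adjusted p 0.224 by edgeR). For Ulk1 it was 0.44 (interval 0.02 to 0.86, adjusted p 0.323 by edgeR). The KOIEC and KOCAG experiments also differ in Cre, in induction and in preparation, which cannot be told apart.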

How the data were processed

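RNA-seq was analysed for 16 libraries. The 3 deposited tables, 1 per experiment, hold the authors' unnormalized read counts. The submitters' processing notes name HISAT2 2.0.5 and featureCounts 1.5.0-p3. Libraries were made by Novogene. The strand setting and genome build are not given in the sources used here. Start and end positions of 9 of the 10 genes were those of GENCODE M21 on GRCm38, and Atg12 differed, so its position is not printed.

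KO was compared with WT within each experiment by edgeR 4.0.16 in R 4.3.3 (filterByExpr, TMM factors, quasi-likelihood F test, Benjamini-Hochberg over all tested genes). Calls were made at an adjusted p under 0.05, without the 2-fold limit of the study's methods. The fits were tested on simulated data. Single genes were also compared by exact two-sided permutation on log2 CPM (prior count 2). TPM values were computed from the counts and the gene lengths in the tables. DESeq2 1.42.0 was an alternative. The genes, lists and tests were chosen with earlier results of these data known. Of each list, up to 3 called genes with the largest fold change per comparison were named. The classes of mitochondrial ribosomal RNA (mt-Rnr1 plus mt-Rnr2) have bounds at 100 and 2000 CPM. Counting 3 reads as the floor, depth allowed levels of 0.178 to 0.408 CPM, which covers counting error only.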

Additional observations from a re-analysis of the deposited data

How the results depend on the processing

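The crypt count of 0 of the 10 genes became 2 (Ulk1 and Atg5) by DESeq2 and in 1 fit of all 16 libraries, which called 18.7% and 10.6% of all genes against 6.96%, and ranged from 0 to 1 when single libraries were left out. The KOIEC organoid count was 0 throughout. The KOCAG organoid count of 2 fell to 1 with library size scaling, without a low-count filter, by DESeq2 and in the fit of all 16 libraries. In that order these fits called 32.5%, 18.3%, 20.3% and 3.06% of all genes, against 31.5%. The count fell to 0 when a 2-fold change was also required, which 1169 of all 13598 genes passed. When single KOCAG libraries were left out, the count moved to either side of 2, and calls over all genes to either side of 31.5%. The difference between crypts and KOCAG organoids counted 1 (Sqstm1) without a filter and by DESeq2. The count of pathway genes, whose alternatives were chosen after seeing the data, moved in crypts from 9 to 3 with library size scaling, 21 by DESeq2, 0 with the replicate block, 1 with the 2-fold limit, 0 with the mitochondrial RNA class as a covariate and 0 without the 2 high-class libraries (also chosen after seeing the data), and from 0 to 21 leaving out single libraries. In KOCAG organoids it moved from 45 to 6 in the fit of all 16 libraries and to 6 with the 2-fold limit, and from 26 to 52 leaving out single libraries. In KOIEC organoids the count of pathway genes was 0 in every fit that kept all the libraries. It did not stay at 0 in every fit that left out 1 library, where 1 library of an arm remained. Calls over all genes in the crypts moved too, from 934 to between 2 and 2468 when single libraries were left out. The causes were not tested. Where only 1 library of an arm was left, it was assumed to vary like the other group.

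With the replicate number as a block, the counts of the 10 genes were 0, 0 and 2, as without it. The numbers were not taken as pairs: correlations of same-numbered crypt libraries were -0.04, 0.19, -0.40 and 0.43, and with only 2 pairs the organoids (0.34 and 0.07) could not settle it. Over all genes the crypt block fit called 4, against 934.

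Some log2 fold changes that had not passed the test turned sign. With library size scaling Atg16l1 was -0.063 and Map1lc3a -0.061 in crypts, and Map1lc3a was -0.052 without the 2 high-class libraries. Leaving out single libraries, crypt values ran from -0.030 to 0.096 for Atg16l1 and from -0.095 to 0.14 for Map1lc3a. In KOIEC organoids they ran from -0.16 to 0.30 for Ulk1, -0.031 to 0.36 for Becn1, -0.075 to 0.50 for Atg12, -0.012 to 0.20 for Atg16l1, -0.60 to 0.72 for Map1lc3a, -0.030 to 0.18 for Map1lc3b, -0.031 to 0.23 for Sqstm1 and -0.48 to 0.24 for Gabarapl1. In KOCAG organoids they ran from -0.10 to 0.064 for Atg7, -0.064 to 0.19 for Atg12 and -0.041 to 0.13 for Atg16l1. Counts of these genes were 47 or more in every library.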
